A study of Mus musculus with 16 samples.

Results

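A set of 10 genes of iron handling was followed across 16 RNA-seq libraries of mouse bone marrow derived macrophages (BMDMs). Members were taken from the gene count table by symbol, and all 10 listed symbols were found among its 22287 genes. All 10 passed edgeR's expression filter, which kept 12514 genes for testing. The members are the iron exporter Slc40a1, the divalent metal transporters Slc11a1, Slc11a2 and Slc39a14, the transferrin receptor Tfrc, the metalloreductases Steap3 and Steap4, the ferritin chains Fth1 and Ftl1, and the siderophore-binding protein Lcn2.

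Bone marrow of C57BL/6J mice aged 8 weeks was cultured for 7 days with GM-CSF (GM) or M-CSF (M), growth factors that drive marrow precursors towards macrophages. The cells grew on dishes with a tissue-culture treated surface (TC) or on untreated dishes (noTC), and then received vehicle or bacterial lipopolysaccharide (LPS) for 3 h. The combinations form 8 groups (GM or M, TC or noTC, and -LPS where LPS was given), each with 2 libraries that the study describes as biological replicates. No allele was altered in any group, and whether replicates with 1 number share a mouse is not stated in the sources used here. All groups are mixed cultures of unsorted cells, so fewer cells of a type and less RNA per cell cannot be told apart.

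Macrophages take in iron as transferrin through Tfrc, as haem from engulfed red cells, and as free ferrous iron through membrane transporters. Inside the cell, ferritin, a shell of heavy (Fth1) and light (Ftl1) chains, stores iron, and ferroportin, the product of Slc40a1, is the only known iron exporter of mammals. During infection macrophages are known to hold iron back from microbes, in part through the liver hormone hepcidin, which causes ferroportin to be degraded, and through lipocalin 2 (Lcn2), which captures bacterial siderophores. Iron regulatory proteins, encoded by Aco1 and Ireb2, bind a short hairpin, the iron responsive element. In the 5′ UTR the bound hairpin holds back translation, and in the 3′ UTR it protects the transcript from decay.

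The hairpin sites are shown because they group the members by a control that acts in part on translation, which transcript counts do not read. The untranslated regions of the tested genes were searched in GENCODE M21 (mouse build GRCm38) for the hairpin pattern: a bulged C, 5 stem bases, the loop CAGTGN and 5 bases that pair with the stem, G with T allowed. Matches were found in 4 members. The 27 bases at each match are given 5′ to 3′ on the transcript's strand, with the 6 loop bases in capitals.
Fth1, 5′ UTR, chr19:9982733-9982759, plus strand: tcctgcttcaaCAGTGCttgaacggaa
Ftl1, 5′ UTR, chr7:45459780-45459806, minus strand: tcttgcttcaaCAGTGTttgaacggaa
Slc40a1, 5′ UTR, chr1:45925466-45925492, minus strand: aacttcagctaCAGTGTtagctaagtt
Tfrc, 3′ UTR, chr16:32631220-32631246, plus strand: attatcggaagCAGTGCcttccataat
Tfrc, 3′ UTR, chr16:32631711-32631737, plus strand: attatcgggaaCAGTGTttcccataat

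Tfrc held 4 such matches in its 3′ UTR, of which the first and the last are shown. Fth1, Ftl1 and Slc40a1 held 1 each, in the 5′ UTR. Among 12455 tested protein-coding genes searched, 25 (0.201%) had a match in a 5′ UTR and 100 (0.803%) in a 3′ UTR. A match is a description of letters, and the other 6 members had none of this form. Hairpins of another form, such as a stem with a further bulge, were not searched for, so a member without a match may still hold an element. The storage and export genes thus shared the 5′ position, and the uptake receptor had the 3′ position.

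The deposited values were RSEM expected counts, and total counts per library lay between 17527802 and 31458363. Counts per 1e6 counts of a library (CPM) give the level of a gene, and the floor of 3 counts lay at 0.0954 to 0.171 CPM, for counting error only. Levels are given as CPM scaled with edgeR's TMM factors, as the values of replicate 1 and then replicate 2. Differences are log2 fold changes with the standard error (SE) of edgeR's quasi-likelihood fit over all 16 libraries, and a gene is called at a Benjamini-Hochberg adjusted p under 0.05. The p-values measure the spread between these libraries, and an exact permutation test of 2 against 2 could not give a two-sided p below 0.333. The TMM factors lay at 1.11 to 1.39 with vehicle and at 0.778 to 0.842 with LPS, so the scale of an LPS comparison depends on them. With library size alone, the tested genes as a whole shifted for LPS against vehicle, their median log2 value moving by -0.48 (TC) and -0.51 (noTC) in GM cells and by -0.83 (TC) and -0.72 (noTC) in M cells. It moved by 0.31 on TC and 0.29 on noTC for M against GM with vehicle, and by -0.03 to 0.08 in the other 6 comparisons. Each group enters 3 of the 12 comparisons, so comparisons share libraries. The 2 GM-TC libraries differed from each other more than any other pair, with a chi-square per degree of freedom of 12.4 against 1.90 to 5.11.

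All 8 macrophage markers, among them Adgre1, Csf1r and Cd68, were detected in every group, with a summed level of 19543 to 45588 CPM by library size. Markers of other cells moved with the groups. The 10 neutrophil genes summed to 539 to 1044 CPM in the GM groups and to 11.9 to 18.6 CPM in the M groups, where Ly6g, Mpo and Elane had no count. The 6 dendritic cell genes summed to 787 to 1087 CPM in GM and to 19.5 to 66.1 CPM in M. Erythroid genes summed to 0.117 to 1.77 CPM, and Alas2 had no count in any library. The 8 heart genes summed to 24.2 to 84.6 CPM in the TC libraries with vehicle and to 0.374 to 1.32 CPM in all other libraries. Stromal genes summed to 1.92 to 29.8 CPM with vehicle and 18.8 to 56.6 CPM with LPS. The part of these cells in the results was not tested.

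The counts of members called for LPS, given beside the shares of all tested genes, rest on 10 genes and are not read as particular to them. Slc11a2, Slc39a14, Steap4 and Lcn2 rose in all 4 cultures and Steap3 fell in all 4, on the TMM scale and by library size alone. Slc11a1, also a divalent metal transporter, was called higher only in M-TC on the TMM scale and lower in all 4 by library size. In GM-TC 5 members were called higher and 3 lower, where 32.8% and 34.2% of all tested genes were. In GM-noTC 6 were higher and 2 lower (all genes, 33.6% and 34.0%). In M-TC 6 were higher and 3 lower (37.6% and 36.4%), and in M-noTC 5 were higher and 2 lower (36.4% and 35.9%). By library size alone, where the median tested gene itself moved down, the split became 4 higher and 6 lower in M-noTC. It became 4 higher and 5 lower in the other 3 cultures, and no share over all genes is given on that scale. The median log2 fold change of the 10 members was 0.18, 0.36, 0.46 and 0.28 in the same order of cultures, against -0.05, -0.03, -0.01 and -0.01 over all tested genes.

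**Figure D1:**
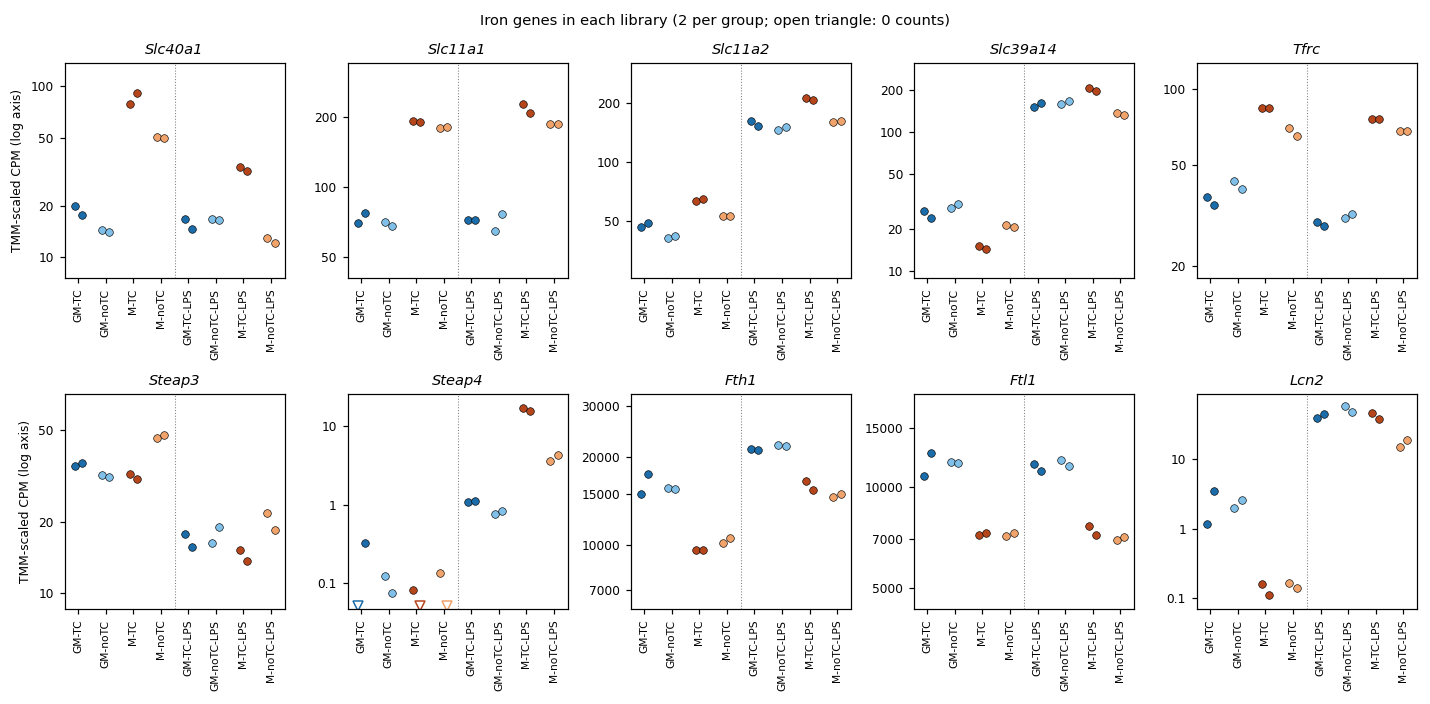
Level of each member in each library, as TMM-scaled CPM on a log axis, with the 8 groups on the x axis and 1 point per library (open triangles mark libraries with 0 counts of Steap4). Slc11a2, Slc39a14, Steap4 and Lcn2 lie higher in every LPS library than in every vehicle library, and Steap3 lies lower. Slc11a1, Tfrc and Ftl1 separate the M from the GM groups with or without LPS.

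**Figure D2:**
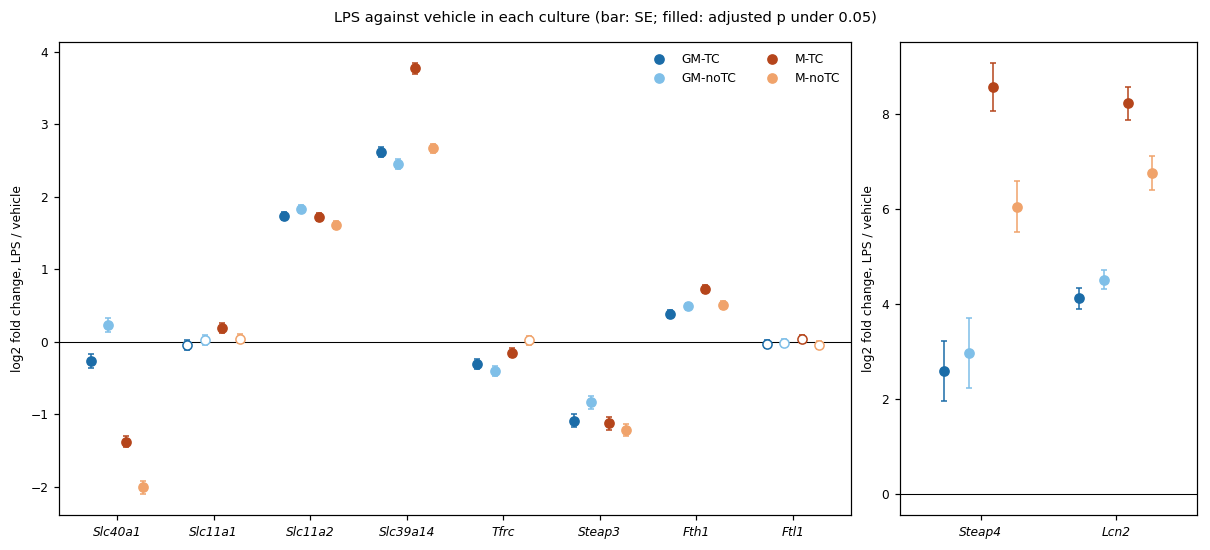
Log2 fold change of LPS against vehicle for each member in the 4 cultures, with Steap4 and Lcn2 on an axis of their own. Bars are the SE of the fit and filled points have an adjusted p under 0.05; Slc40a1 fell by 1.37 and 2.002 in M-TC and M-noTC and lay within 0.26 of 0 in the GM cultures.

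Ferritin transcripts were by far the most abundant of the set. Per kilobase of annotated exon, the 2 chains lay between 2772 and 8851 TMM CPM over the 8 groups, and no other member exceeded 59.1. Together they took 1.76% to 3.34% of all counts of a library. A processed copy, Ftl1-ps1, had its own row at 0.196% to 0.264% of the Ftl1 count, and reads could be shared between the rows.

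Fth1, the heavy chain that carries the ferroxidase activity, was at 14969 and 17541 CPM on TC and 15638 and 15586 on noTC in GM cells, and at 9622 and 9609 on TC and 10127 and 10586 on noTC in M cells. With LPS it was at 21311 and 21230, 21987 and 21820, 16551 and 15455, and 14557 and 14926 in the same order. The LPS libraries of a culture all exceeded their vehicle libraries. On the TMM scale Fth1 rose in GM cells by a log2 of 0.39 (SE 0.054, adjusted p = 1.66e-06) on TC and 0.49 (adjusted p = 5.48e-08) on noTC, and in M cells by 0.73 (adjusted p = 4.40e-11) on TC and 0.51 (adjusted p = 2.21e-08) on noTC. Scaled by library size alone these values became -0.09, -0.02, -0.09 and -0.22, so the direction for Fth1 holds relative to the median gene and not per read sequenced.

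Ftl1, the light chain that aids the mineral core, was not called for LPS in any culture. GM-TC libraries held 10765 and 12596 CPM without and 11746 and 11157 with LPS, and GM-noTC libraries 11909 and 11811 without and 12045 and 11529 with LPS. M-TC libraries held 7188 and 7328 without and 7655 and 7224 with LPS, and M-noTC libraries 7162 and 7316 without and 6952 and 7107 with LPS. In TMM CPM all GM libraries lay above all M libraries, with or without LPS. By library size this held within each treatment. GM libraries with LPS (8928 to 9571 CPM by library size) then lay below M libraries with vehicle (9933 to 10197). The log2 fold changes of Ftl1 for LPS were -0.03, -0.01, 0.04 and -0.04 (SE 0.055 each, adjusted p 0.505 to 0.897). Scaled by library size alone, Ftl1 was called lower in all 4, at -0.51, -0.52, -0.79 and -0.77 in the order GM-TC, GM-noTC, M-TC, M-noTC (adjusted p 5.92e-12 to 1.32e-08).

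The ratio of Fth1 to Ftl1 counts within a library needs no scaling between libraries and shows the unequal change of the 2 chains. In GM cells it was 1.39 and 1.39 on TC and 1.31 and 1.32 on noTC, and in M cells 1.34 and 1.31 on TC and 1.41 and 1.45 on noTC. With LPS it was 1.81 and 1.90, 1.83 and 1.89, 2.16 and 2.14, and 2.09 and 2.10 in the same order. All 8 LPS libraries lay above all 8 vehicle libraries. LPS minus vehicle was 0.54 on the log2 scale, averaged over the 4 cultures, and an exact permutation within cultures gave a two-sided p of 0.0015, the smallest its 1296 arrangements allow. The same test gave 0.11 for M minus GM (p = 0.0154, exact permutation) and -0.0014 for noTC minus TC (p = 0.948, exact permutation). These averages join unlike directions. With vehicle, noTC libraries lay below TC libraries in GM cells and above them in M cells, without overlap, and M-TC lay below GM-TC. The dish value near 0 thus does not describe the single cultures. These 3 tests were added after the values were seen, with no adjustment among them, and the ratio is not corrected for transcript length.

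**Figure D3:**
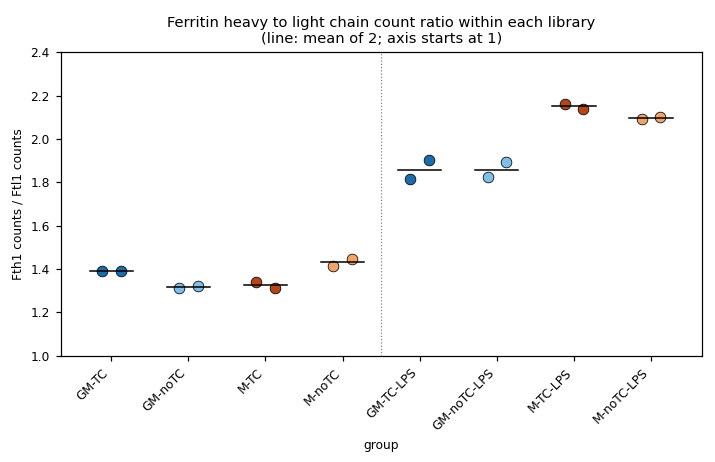
Ratio of Fth1 to Ftl1 counts in each of the 16 libraries (y axis, starting at 1) by group (x axis), with a line at the mean of the 2 libraries. The vehicle libraries lie between 1.31 and 1.45 and the LPS libraries between 1.81 and 2.16.

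Slc40a1, which encodes ferroportin, was highest in the M cultures before LPS. M cells had 79.1 and 91.5 CPM on TC and 50.2 and 49.98 on noTC, against 19.9 and 17.6 (TC) and 14.4 and 14.0 (noTC) in GM cells. After LPS, M cells had 33.8 and 32.02 on TC and 12.9 and 12.1 on noTC. GM cells then had 16.7 and 14.6 on TC and 16.8 and 16.6 on noTC. LPS lowered Slc40a1 2.59-fold in M-TC (log2 -1.37, SE 0.078, adjusted p = 3.48e-13) and 4.01-fold in M-noTC (log2 -2.002, SE 0.089, adjusted p = 4.71e-15), with no overlap between libraries. By library size alone the log2 values were -2.20 and -2.73. In order of level, M-TC, M-noTC and M-TC-LPS each differed from the next group, and the other 5 groups lay between 12.1 and 19.9 CPM with neighbours not called apart. M-noTC-LPS had the lowest values of all.

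In GM cells the LPS changes of Slc40a1 were small and unstable. The log2 fold change was -0.26 in GM-TC (adjusted p = 0.0216) and 0.23 in GM-noTC (adjusted p = 0.0386). The call in GM-TC was lost without GM-TC replicate 1 (log2 -0.16, adjusted p = 0.211) or without GM-TC-LPS replicate 2 (log2 -0.17, adjusted p = 0.237). The call in GM-noTC was lost without any 1 of its 4 libraries (adjusted p 0.0552 to 0.121), and with library size alone the value was -0.28.

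The metal transporters behaved in different ways. Slc11a1 encodes NRAMP1, which moves divalent metal out of the phagosome and is known for its role in resistance to intracellular microbes. M cells had 193 and 190 CPM on TC and 179 and 182 on noTC, and with LPS 229 and 209 on TC and 187 and 186 on noTC. GM cells had 69.8 and 77.6 on TC and 70.8 and 68.0 on noTC, and with LPS 71.8 and 71.9 on TC and 64.8 and 76.5 on noTC. No M library overlapped a GM library. For LPS, Slc11a1 was called only in M-TC (log2 0.19, SE 0.065, adjusted p = 0.0114), a call lost without M-TC replicate 2 (adjusted p = 0.0639) or M-TC-LPS replicate 1 (log2 0.12, adjusted p = 0.163). By library size alone Slc11a1 was called lower with LPS in all 4 cultures, at -0.52 (GM-TC), -0.48 (GM-noTC), -0.64 (M-TC) and -0.68 (M-noTC), where the TMM values were -0.04, 0.03, 0.19 and 0.05 (adjusted p by library size 2.66e-09 to 2.04e-06).

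Slc11a2 encodes DMT1, the paralog that carries ferrous iron out of endosomes after transferrin uptake. GM cells had 46.3 and 48.7 CPM on TC and 40.9 and 42.0 on noTC, and M cells 63.4 and 64.5 on TC and 52.9 and 53.0 on noTC. With LPS it reached 163 and 153, 145 and 150, 213 and 208, and 161 and 163 in the same order. On the TMM scale the rises were 3.32-fold, 3.56-fold, 3.30-fold and 3.05-fold (log2 1.73, 1.83, 1.72 and 1.61, SE 0.054 to 0.056, adjusted p 6.03e-18 to 2.28e-17). Slc11a2 rose less by library size alone, with log2 values of 1.25, 1.32, 0.89 and 0.88, all called. All 8 LPS libraries exceeded all 8 vehicle libraries in TMM CPM.

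Slc39a14 encodes ZIP14, a zinc transporter that also takes up iron that is not bound to transferrin. It was lowest in the M cultures with vehicle, at 15.3 and 14.4 CPM on TC and 21.5 and 20.8 on noTC, against 26.96 and 24.2 (TC) and 28.7 and 30.4 (noTC) in GM cells. With LPS the M cells reached 208 and 197 on TC and 136 and 132 on noTC, and the GM cells 152 and 161 on TC and 158 and 166 on noTC. M-TC thus passed from the lowest group to the highest. The rise was 13.6-fold in M-TC (log2 3.77, SE 0.071, adjusted p = 7.25e-22), against 6.35-fold in M-noTC, 6.14-fold in GM-TC and 5.48-fold in GM-noTC. By library size alone the log2 value was 2.94 in M-TC, 1.94 in M-noTC, 2.14 in GM-TC and 1.95 in GM-noTC. M-TC thus had the largest rise on both scales, and M-noTC the smallest by library size.

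Tfrc, the receptor for iron-loaded transferrin, was higher in all M than in all GM libraries. M cells had 84.7 and 84.2 CPM on TC and 70.3 and 65.2 on noTC, and GM cells 37.6 and 34.9 on TC and 43.3 and 40.1 on noTC. With LPS the level was 76.2 and 76.1, 68.6 and 68.5, 29.7 and 28.6, and 30.8 and 32.1 in the same order. LPS lowered Tfrc in GM-TC (log2 -0.31, SE 0.070, adjusted p = 0.000487) and GM-noTC (log2 -0.41, SE 0.067, adjusted p = 1.48e-05), with no overlap. The M-TC call (log2 -0.15, adjusted p = 0.0295) was lost without any 1 of the 4 libraries (adjusted p 0.0820 to 0.0983). In M-noTC Tfrc was not called at 0.02 (adjusted p = 0.786). Tfrc was called lower in all 4 cultures by library size alone, at -0.79 (GM-TC), -0.91 (GM-noTC), -0.98 (M-TC) and -0.71 (M-noTC) (adjusted p 4.44e-12 to 2.65e-09).

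Steap3, the ferrireductase that works beside Tfrc in endosomes, fell with LPS in every culture. GM cells had 35.0 and 35.8 CPM on TC and 31.96 and 31.4 on noTC, and M cells 32.1 and 30.8 on TC and 46.0 and 47.4 on noTC. With LPS the level was 17.8 and 15.7, 16.4 and 19.1, 15.2 and 13.6, and 21.9 and 18.5 in the same order. Every LPS library lay below every vehicle library. The falls were 2.12-fold, 1.78-fold, 2.18-fold and 2.31-fold (log2 -1.09, -0.83, -1.12 and -1.21, SE 0.085 to 0.094, adjusted p 1.70e-11 to 2.95e-08), and by library size alone the log2 values in the M cultures were -1.95 (TC) and -1.94 (noTC).

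Steap4, a plasma membrane and endosomal metalloreductase known to respond to inflammatory cytokines, was close to absent without LPS. Its counts in GM cells were 0 and 8 on TC and 3 and 2 on noTC, and in M cells 2 and 0 on TC and 4 and 0 on noTC. With LPS the counts were 21 and 24, 16 and 18, 351 and 273, and 71 and 87 in the same order. In CPM the LPS groups stood at 1.09 and 1.11, 0.758 and 0.821, 17.3 and 15.9, and 3.64 and 4.34. Steap4 was called higher in all 4 cultures (adjusted p 4.89e-13 to 0.00111). From the summed counts, scaled for library size with TMM, the ratio of LPS to vehicle was 431 in M-TC (95% exact counting interval 119 to 3564) and 72.7 in M-noTC (27.8 to 270.1). It was 6.14 in GM-TC (2.87 to 15.1) and 8.15 in GM-noTC (3.17 to 26.7). The intervals cover counting error only, and the fitted log2 value moved with the vehicle libraries. It went from 2.59 to 1.77 or 7.72 without GM-TC replicate 1 or 2, from 8.56 to 11.6 or 7.61 without M-TC replicate 1 or 2, and from 6.05 to 9.56 or 4.84 without M-noTC replicate 1 or 2.

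The 250 bases before the annotated start of Steap4 are shown because this member rose from near 0 with LPS, a stimulus that acts through NF-kB. The window is chr5:7960222-7960471 (RefSeq, GRCm38.p6, plus strand), and capitals mark 2 matches to the NF-kB consensus, searched on both strands.
Steap4 upstream: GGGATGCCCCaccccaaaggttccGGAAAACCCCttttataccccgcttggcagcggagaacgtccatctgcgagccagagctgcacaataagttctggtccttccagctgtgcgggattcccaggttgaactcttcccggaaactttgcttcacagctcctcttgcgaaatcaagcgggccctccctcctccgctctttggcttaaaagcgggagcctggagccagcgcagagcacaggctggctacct

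RefSeq windows were held for 7 of the members, 12 windows in all, and those of 3 members (Steap3, Steap4 and Ftl1) had a match. Steap3 fell with LPS and Ftl1 was not called, so a match did not go with 1 direction. Lcn2 rose with LPS and had a window without a match. Windows were lacking for Slc40a1, Slc11a2 and Slc39a14, and a link of matches to the LPS response was not tested. Of all 32851 windows, 7.25% held a match, a share of windows that is not comparable with a count of members. No binding was measured here.

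Lcn2 rose from low levels in every culture. GM cells had 1.16 and 3.46 CPM on TC and 1.96 and 2.59 on noTC, and M cells 0.160 and 0.112 on TC and 0.168 and 0.139 on noTC, the M values resting on 3 to 6 counts a library. With LPS the GM cells had 38.9 and 44.99 on TC and 57.1 and 47.2 on noTC, and the M cells 46.7 and 37.2 on TC and 14.8 and 18.9 on noTC. The rise was 17.3-fold in GM-TC (log2 4.11, SE 0.22, adjusted p = 1.47e-13) and 22.8-fold in GM-noTC (log2 4.51, SE 0.21, adjusted p = 1.28e-14). Without GM-TC replicate 2 the GM-TC value was 5.17, and without replicate 1 it was 3.61. In the M cultures, with 7 and 11 vehicle counts in all, the ratio of scaled counts was 314 in M-TC (95% exact counting interval 152 to 781) and 112 in M-noTC (62.1 to 225), called at adjusted p = 1.33e-15 and 1.33e-13. Despite the unequal starting levels, the LPS groups other than M-noTC-LPS were not called apart from their neighbours in order of level, and M-noTC-LPS lay below them. Lcn2 is also a granule gene of neutrophils, whose marker sums are given above.

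Next the growth factors were compared within each dish and treatment. With vehicle, M cells had more transcript of the exporter and of Slc11a1, Slc11a2 and Tfrc, and less of Slc39a14, Lcn2 and the storage genes, than GM cells. LPS left that order in place for Slc11a1, Tfrc, Fth1 and Ftl1, and for Slc11a2 with an unstable call on noTC. On TC dishes 4 members were called higher in M and 4 lower, where 28.9% and 32.6% of all tested genes were. On noTC dishes 5 were higher and 4 lower (30.7% and 31.4%). With LPS 6 were higher and 2 lower on TC (32.9% and 33.9%), and 4 were higher and 5 lower on noTC (32.6% and 33.5%).

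**Figure D4:**
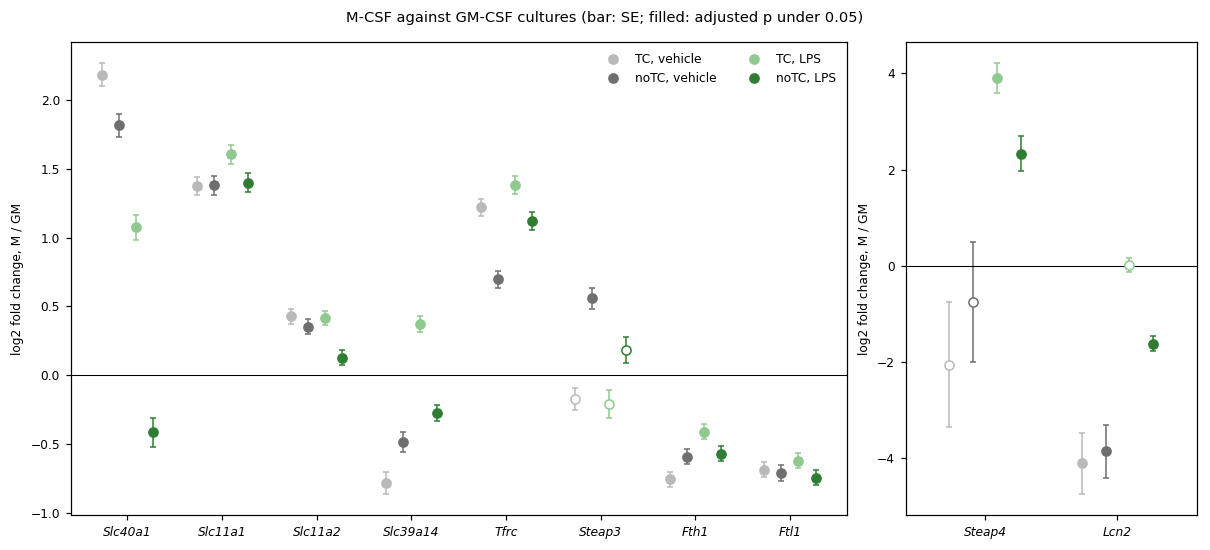
Log2 fold change of M against GM cultures for each member on TC and noTC dishes with vehicle and with LPS, with Steap4 and Lcn2 on an axis of their own. Bars are the SE of the fit and filled points have an adjusted p under 0.05; Slc11a1 and Tfrc lie above 0 and Fth1 and Ftl1 below 0 in all 4 comparisons.

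Slc11a1 was 2.60-fold higher in M on TC and on noTC with vehicle, and 3.05-fold and 2.64-fold higher with LPS (log2 1.38 to 1.61, adjusted p 5.18e-15 to 6.49e-14). Tfrc was 2.33-fold and 1.62-fold higher with vehicle and 2.61-fold and 2.18-fold higher with LPS (log2 0.70 to 1.38). Fth1 was lower in M by 1.69-fold, 1.51-fold, 1.33-fold and 1.49-fold in the same order, and Ftl1 by 1.61-fold, 1.64-fold, 1.54-fold and 1.68-fold. Both ferritin chains were called lower in all 4 (adjusted p 4.80e-11 to 7.78e-07). The exporter did not keep its order.

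Slc40a1 was 4.56-fold higher in M-TC than in GM-TC (log2 2.19, SE 0.082, adjusted p = 4.35e-16) and 3.53-fold higher in M-noTC than in GM-noTC. With LPS it was 2.11-fold higher on TC (adjusted p = 8.93e-10) and 1.33-fold lower on noTC (log2 -0.42, SE 0.10, adjusted p = 0.00125). Slc39a14 was lower in M with vehicle (log2 -0.78 on TC and -0.49 on noTC), higher in M-TC-LPS (0.37) and lower in M-noTC-LPS (-0.27), all called. Slc11a2 was higher in M in all 4 (log2 0.43, 0.35, 0.42 and 0.13), and the last call (adjusted p = 0.0343) was lost without GM-noTC-LPS replicate 1, M-noTC-LPS replicate 1 or M-noTC-LPS replicate 2 (adjusted p 0.0778 to 0.170).

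Lcn2 was lower in M with vehicle, 17.3-fold on TC and 14.6-fold on noTC (adjusted p = 6.47e-06 and 2.30e-06; the TC value went from log2 -4.11 to -3.05 without GM-TC replicate 2), was not called on TC with LPS (log2 0.00, SE 0.15, adjusted p = 0.989), and was 3.09-fold lower in M-noTC-LPS. Steap4 was not called with vehicle and was 15.0-fold and 5.03-fold higher in M with LPS on TC and noTC (adjusted p = 1.77e-10 and 8.64e-06). Steap3 was called only on noTC with vehicle, 1.47-fold higher in M. The neutrophil and dendritic cell sums, both higher in every GM library than in every M library, moved with these comparisons, and their part was not tested.

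The question of the study, whether the dish surface matters, was asked for each growth factor and treatment. In GM cells few members differed between dishes, and in M cells several did, most of them lower on noTC after LPS. In GM cells with vehicle no member was higher and 2 were lower on noTC (all genes, 4.69% and 2.85%). Upon LPS no member was called in GM cells by edgeR or DESeq2 (all genes by edgeR, 2.08% and 0.727%), and 1, Lcn2, had an unadjusted p under 0.05. In M cells with vehicle 2 were higher and 3 lower (16.1% and 11.1%), and upon LPS 1 was higher and 6 were lower (10.4% and 12.9%). In M cells with LPS the 10 members had a median log2 fold change of -0.31, against 0.00 over all tested genes, and 9 of the 10 values were below 0.

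**Figure D5:**
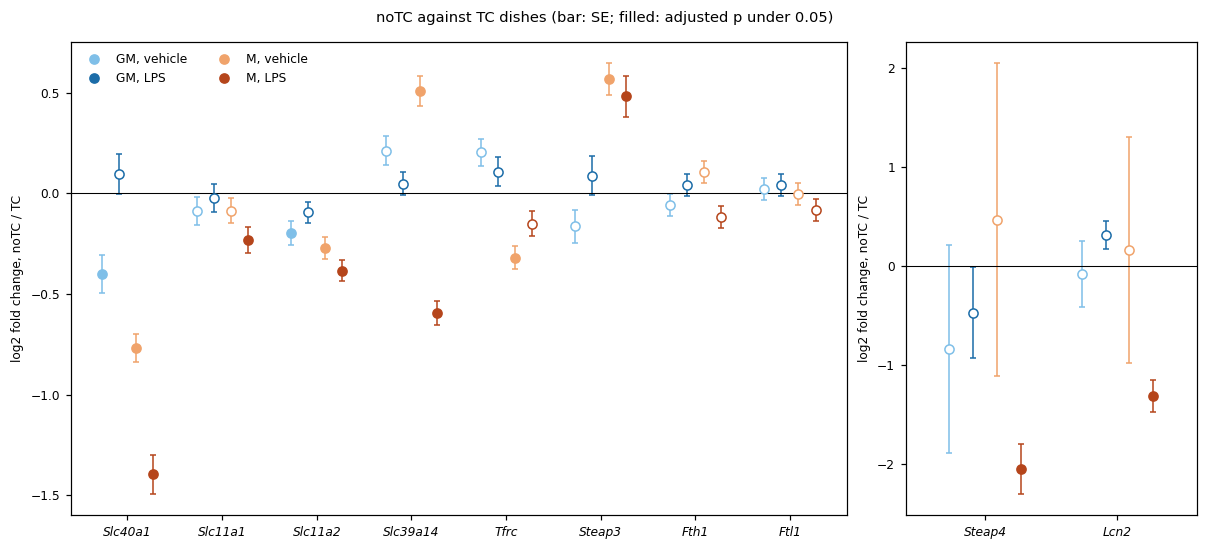
Log2 fold change of noTC against TC dishes for each member in GM and M cells with vehicle and with LPS, with Steap4 and Lcn2 on an axis of their own. Bars are the SE of the fit and filled points have an adjusted p under 0.05; the filled points with LPS are all of M cells, and Slc40a1 has the lowest of them outside Steap4, at -1.40.

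Slc40a1 was lower on noTC by 1.70-fold in M cells with vehicle (log2 -0.77, SE 0.071, adjusted p = 3.89e-08) and by 2.63-fold with LPS (log2 -1.40, SE 0.096, adjusted p = 9.54e-10). In GM cells it was lower with vehicle (log2 -0.40, SE 0.095, adjusted p = 0.0104), a call lost without GM-TC replicate 1 or either GM-noTC replicate (adjusted p 0.0519 to 0.103), and not called with LPS (0.10). Slc11a2 was lower on noTC in M cells with vehicle (log2 -0.27, adjusted p = 0.000643) and with LPS (-0.38, adjusted p = 9.83e-06). Its call in GM cells with vehicle (-0.20, adjusted p = 0.0419) was lost without GM-TC replicate 2 or either GM-noTC replicate (adjusted p 0.137 to 0.257).

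Slc39a14 changed direction in M cells. It was 1.42-fold higher on noTC with vehicle (log2 0.51, SE 0.077, adjusted p = 2.58e-05) and 1.51-fold lower with LPS (log2 -0.59, SE 0.059, adjusted p = 1.67e-07). Steap3 was higher on noTC with both, 1.48-fold (adjusted p = 7.76e-06) and 1.40-fold (adjusted p = 0.00135). Tfrc was lower on noTC with vehicle (log2 -0.32, adjusted p = 0.000237).

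Upon LPS, M-noTC cells had 4.15-fold less Steap4 (log2 -2.05, SE 0.25, adjusted p = 3.30e-06) and 2.49-fold less Lcn2 (log2 -1.32, SE 0.16, adjusted p = 3.43e-06) than M-TC cells. Slc11a1 was 1.17-fold lower (adjusted p = 0.0126), a call lost without M-TC-LPS replicate 1 (log2 -0.16, adjusted p = 0.1796) or either M-noTC-LPS replicate (adjusted p 0.0777 and 0.0704). The ferritin chains were called in none of the 4 dish comparisons, with log2 values between -0.12 and 0.11. Without GM-TC replicate 1, of the pair with the widest spread, Slc39a14 (0.29), Tfrc (0.26) and Fth1 (-0.17) were called in GM cells with vehicle, and 4 members were called in all. The heart gene sums were high only in the TC libraries with vehicle, so they moved with the dish comparisons at steady state and with the LPS comparisons on TC, and their part was not tested.

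Whether a response itself differed between cultures was tested with interaction terms. The LPS response differed between dishes for no member in GM cells (0.783% of all tested genes were called), where Slc40a1 alone had an unadjusted p under 0.05 and DESeq2 called none, and for 2 members in M cells (10.6%). It differed between growth factors for 5 members on TC (41.1%) and 5 on noTC (36.2%). The dish effect differed between growth factors for 3 members with vehicle (11.2%) and 4 upon LPS (10.6%). The log2 fold change of Slc40a1 for LPS was lower in M than in GM cells, and the M values were falls on both dishes. The difference was -1.11 on TC (SE 0.12, adjusted p = 2.10e-07) and -2.24 on noTC (SE 0.13, adjusted p = 1.21e-11), where the GM value itself was above 0. The rise of Slc39a14 in M cells was smaller on noTC than on TC (log2 -1.10, SE 0.096, adjusted p = 1.23e-07).

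A list of 48 other genes of iron and haem handling was read from the same fit, and 38 of them were tested. They were chosen by their known roles, with earlier results of these data known. LPS called 19 higher and 9 lower in GM-TC, then 19 and 11 (GM-noTC), 19 and 12 (M-TC) and 17 and 8 (M-noTC), with list medians of 0.13, 0.18, 0.19 and 0.20. Over all tested genes 32.8% to 37.6% were called higher and 34.0% to 36.4% lower. Under library size alone the splits turned to 8 higher and 22 lower, 8 and 25, 6 and 24, and 7 and 22. On that scale the median tested gene itself moved down with LPS, and shares over all genes are given on the TMM scale only. M against GM called 10 higher and 18 lower on TC and 9 and 17 on noTC with vehicle (18 and 15, and 18 and 16, with library size alone), and 13 and 17, and 12 and 20, with LPS, where 28.9% to 32.9% of all tested genes were higher and 31.4% to 33.9% lower. Between dishes 1 was higher and 1 lower on noTC in GM cells, 3 and 8 in M cells, 2 and 1 in GM cells with LPS, and 3 and 11 in M cells with LPS (5 and 8 with library size alone). The shares over all genes were 4.69% and 2.85%, 16.1% and 11.1%, 2.08% and 0.727%, and 10.4% and 12.9% in the same order.

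Among these genes, at most 3 per direction are named below for each comparison, those with the largest called changes. A gene may have changed as well in a culture for which it is not named. Hamp, which encodes hepcidin, rose in the GM cultures, from a mean of 0.0201 to 10.7 CPM in GM-TC (adjusted p = 4.61e-13) and from 0.0592 to 7.97 in GM-noTC (adjusted p = 1.77e-12). In the M cultures with LPS it stood at 0.380 CPM on TC and 0.555 on noTC. Cp, the ferroxidase ceruloplasmin that assists ferroportin, rose in M-TC from 15.1 to 243.6 CPM (log2 4.01, SE 0.10) and in M-noTC from 6.11 to 99.6 (log2 3.995, SE 0.11). In GM cells its mean was also higher with LPS, at 89.6 CPM against 22.2 on TC and 62.9 against 15.1 on noTC. Cp was lower on noTC in all 4 dish comparisons (log2 -0.55 and -0.51 in GM cells, -1.28 and -1.29 in M cells, with vehicle and LPS). Ncoa4, the receptor that delivers ferritin to autophagy, fell in M-TC from 442.5 to 203.8 CPM (log2 -1.12, SE 0.045) and in M-noTC from 367.3 to 207.5 (log2 -0.82).

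Slc25a37, the mitochondrial iron importer mitoferrin, rose in GM-noTC from 24.1 to 173.3 CPM (log2 2.84) and in M-noTC from 42.1 to 157.7 (log2 1.91), and Slc25a28, its paralog, in M-TC from 9.36 to 34.4 (log2 1.88). The hypoxia factor Hif1a rose in M-TC (log2 2.17) and M-noTC (log2 1.97). The haem exporter Flvcr1 fell in GM-TC (log2 -0.79), M-TC (-1.19) and M-noTC (-1.09), Flvcr2 in GM-TC (-1.46) and GM-noTC (-1.69), and the haemoglobin scavenger receptor Cd163 in GM-noTC (-0.86), M-TC (-1.62) and M-noTC (-1.71). Bach1, a haem-sensing repressor of Hmox1 and the ferritin genes, fell in GM-TC (-1.004). Its mean with LPS was 50.8 CPM in GM-TC and 51.0 in GM-noTC. The transcription factor Spic rose in GM-TC (2.71) and GM-noTC (2.53), Steap1 rose in GM-TC (2.66), and Slc22a17, a receptor for lipocalin 2, fell in GM-noTC from 1.12 to 0.508 CPM.

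Hmox1, which breaks down haem and frees its iron, was higher on noTC in GM cells with vehicle (log2 0.31, adjusted p = 0.00264) and LPS (0.26, adjusted p = 0.0277) and in M cells with vehicle (0.30, adjusted p = 0.000933), and lower in M cells with LPS (log2 -0.61, SE 0.063, adjusted p = 3.50e-07). Nfe2l2, which drives Hmox1 and ferritin genes, was also lower in M-noTC-LPS than in M-TC-LPS (-0.54). In M cells with vehicle Alas1 (0.35) and Lrp1 (0.34) were higher on noTC, and Trf (-0.49) and Hfe (-0.47) lower. With LPS the haem exporter Flvcr1 (0.21), Alas1 (0.19) and Slc39a8 (0.39) were higher in M-noTC, and Hp (0.48) in GM-noTC.

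Between growth factors with vehicle, Alas1, the first enzyme of haem synthesis, was lower in M-TC at 58.2 CPM against 1093 in GM-TC (log2 -4.23, SE 0.061). Ltf, an iron-binding protein of neutrophil granules, was lower in M-TC (0.0386 against 2.21 CPM) and M-noTC (0.0569 against 3.66), as was Flvcr2 (0.234 against 5.17, and 0.0906 against 5.65), and Slc22a17 was lower in M-noTC (0.0517 against 1.12). Cd163 (log2 2.17 and 1.37), Slc39a8, the paralog of Slc39a14 (1.08 and 1.16), and Slc25a28 (0.84 and 1.18) were higher in M on TC and noTC. With LPS, Bach1 (1.55 and 1.68) and Slc25a28 (1.58 and 1.33) were higher in M on TC and noTC, Cp was higher on TC (1.44) and Slc39a8 on noTC (1.21). Ltf (0.0291 against 3.78 CPM on TC, 0.125 against 4.76 on noTC), Hamp (-4.83 and -3.83) and, on noTC, haptoglobin, Hp (-4.79), were lower in M, and Steap1 had no count in M-TC-LPS against 1.304 CPM in GM-TC-LPS.

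For each member, the genes most like it over the 8 group means were found by Pearson correlation of log2 levels among 9208 tested genes with a mean of at least 5 CPM, as a description. These points share libraries and the 3 factors of the design, and no p is given. The 3 nearest genes were Pan3, Sirpa and 4930402H24Rik for Slc40a1, Limd2, Pdp2 and Stab1 for Slc11a1, Cln3, Nupr1 and Zdhhc18 for Slc11a2, and Plaa, Gatad2a and Psmd11 for Slc39a14. They were Camk1d, Lmo2 and Pacs1 for Tfrc, Fancg, Cdca7l and Slc41a3 for Steap3, and Ist1, Arf1 and Olfr1385 for Steap4. For Fth1 they were Sec63, Plpp3 and Tma7, for Ftl1 Pdcd1lg2, Mmp8 and Ctsd, and for Lcn2 Tcf25, Pi4k2b and Ptafr. The highest value for Slc40a1 was 0.979, with Pan3.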

How the data were processed

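RNA-seq libraries were made from 16 BMDM cultures in 8 groups of 2, assigned from the sample labels. The authors cleaned reads, aligned them with HISAT2 and quantified genes with RSEM. Their processing notes name fastp 0.18.0, Bowtie2 2.2.8 and StringTie 1.3.1 as well. The deposited values are RSEM's expected counts per gene, not normalized. Which genome build and gene annotation they used is not given in the sources used here. Gene symbols were those of the table, and coordinates and exons came from GENCODE M21, matched on gene ID.

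Expected counts were rounded. edgeR 4.0.16 in R 4.3.3 was used with its expression filter, TMM factors and 1 quasi-likelihood fit of the 8 groups, without a replicate block, as the study's methods name none. Contrasts gave 12 comparisons of groups, 6 interactions and the 28 pairs of groups behind the order of levels, where neighbours differ at an adjusted p under 0.05 without overlap. Common dispersion corresponded to a biological coefficient of variation of 4.75%. The tests were checked on simulated data. Alternatives were DESeq2 1.42.0 on all or only the compared libraries, its size factors or library size alone in edgeR, no filter, only the compared libraries, a replicate block, each library left out in turn (its group then has 1 library, assumed to vary like the others), fold thresholds, ferritin rows summed, and a share of the other libraries subtracted from the noTC vehicle libraries. The ferritin ratio was added after the data were seen.

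All 10 members are named in every group. Other iron genes are named where called, at 1 CPM or more in a group, without overlap and among the 3 largest changes in a direction, and for each member the 3 genes of highest correlation (pseudocount 0.01 CPM). The members and lists were chosen with earlier results of these data known.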

Additional observations from a re-analysis of the deposited data

Results flagged for a closer look

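The values below are differences between log2 fold changes, tested as interaction terms in edgeR's quasi-likelihood fit and called at an adjusted p under 0.05. In each case the response of 1 culture differed from that of another by the test of the difference itself. Negative values mean a lower log2 fold change on noTC, or in M cells where growth factors are compared. For a gene that fell, a negative value is a deeper fall.

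In M cells the LPS response differed between dishes for Slc40a1 (-0.63, adjusted p = 0.00148) and Slc39a14 (-1.10, adjusted p = 1.23e-07). For Slc40a1 the fall was deeper on noTC, and for Slc39a14 the rise was smaller there.

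On TC dishes the LPS response differed between growth factors for 5 members. The value was -1.11 for Slc40a1 (adjusted p = 2.10e-07), 1.15 for Slc39a14 (adjusted p = 2.94e-09), 0.35 for Fth1 (adjusted p = 0.000870) and 4.12 for Lcn2 (adjusted p = 2.43e-05), the last 3.06 without GM-TC replicate 2. It was 5.97 for Steap4 (adjusted p = 0.000767), which became 0.84 (adjusted p = 0.868) without GM-TC replicate 2, the only GM-TC library with a count, 6.80 without GM-TC replicate 1, and 9.03 or 5.01 without M-TC replicate 1 or 2. The Fth1 value became 0.23 without GM-TC replicate 2 and 0.00 with library size alone, where it was not called.

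On noTC dishes it differed for Slc40a1 (-2.24, adjusted p = 1.21e-11), Tfrc (0.43, adjusted p = 0.000658), Slc11a2 (-0.22, adjusted p = 0.0252), Steap3 (-0.38, adjusted p = 0.0205) and Lcn2 (2.24, adjusted p = 0.00755). The Lcn2 call was lost without M-noTC replicate 2 (2.08, adjusted p = 0.0832), and its value was 3.90 after subtraction of a share of the other libraries. The Slc11a2 call was lost in 6 of 8 fits with a library left out (adjusted p 0.0508 to 0.0844), those without GM-noTC replicate 1, GM-noTC-LPS replicate 2 or any of the 4 M libraries. The Steap3 call was lost in 4 of 8, those without replicate 2 of any of the 4 groups (adjusted p 0.0526 to 0.169). With library size alone the Tfrc value was 0.21 and not called.

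With vehicle, the effect of the dish differed between growth factors for Slc40a1 (-0.37, adjusted p = 0.0486), Tfrc (-0.52, adjusted p = 0.000328) and Steap3 (0.73, adjusted p = 0.000142). The Slc40a1 call was lost in 6 of 8 fits with a library left out (adjusted p 0.108 to 0.237), all but those without replicate 1 of GM-TC or M-TC.

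Upon LPS it differed for Slc40a1 (-1.49, adjusted p = 2.51e-07), Slc39a14 (-0.64, adjusted p = 1.56e-05), Lcn2 (-1.63, adjusted p = 2.35e-05) and Slc11a2 (-0.29, adjusted p = 0.0113). The Slc11a2 call was lost without GM-TC-LPS replicate 2, GM-noTC-LPS replicate 2 or M-noTC-LPS replicate 1 (adjusted p 0.0511 to 0.0832), and with library size alone it was -0.18 and not called.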

How the results depend on the processing

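Among values called on at least 1 of the scales, directions changed for 12 with library size alone in place of TMM, where the median tested gene itself moved by up to 0.83. They were Fth1 for LPS in GM-TC (-0.092), GM-noTC (-0.020), M-TC (-0.092) and M-noTC (-0.22), Slc11a1 in GM-noTC (-0.48), M-TC (-0.64) and M-noTC (-0.68), Slc40a1 in GM-noTC (-0.28), Ftl1 in M-TC (-0.79) and Tfrc in M-noTC (-0.71). The LPS by growth factor values of Ftl1 on TC (-0.28) and Fth1 on noTC (-0.20) turned too. No other alternative turned a value called under it or under TMM. Values called under neither changed sign more often, with library size alone, with a library left out and under other alternatives. By library size the order of levels held for 4 of 7 neighbours in Slc11a1 and Fth1, and for 5 to 7 in the other members.

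A fold change above 2, besides the adjusted p or with an unadjusted p under 0.05, left these counts of members called. No share over all genes is given at these thresholds, so the counts are not read as particular to the members. In LPS comparisons 5 of 8 stayed in GM-TC and 4 of 8 in GM-noTC. Of 9 called in M-TC and 7 in M-noTC, 4 higher and 2 lower stayed in each. Of 5 called for LPS by growth factor on TC, 3 higher and 1 lower stayed. For M against GM 4 stayed on TC, 3 on noTC, and 4 each with LPS. For the dish, 0 stayed in either cell type with vehicle and 3 in M cells with LPS. Among interactions 1 stayed for LPS by dish in M, 0 for dish by growth factor with vehicle, 3 for LPS by growth factor on noTC (2 with the adjusted p), and 2 for dish by growth factor upon LPS (with the adjusted p).

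The count for GM-noTC against GM-TC was 2, and 1 with DESeq2, with its size factors in edgeR, with library size alone or without a filter, 0 with only the compared libraries in either tool, and 0 to 4 with a library left out. Leaving out a library gave 0 to 1 for LPS by dish in GM and 2 to 5 for LPS by growth factor on noTC. Without a filter 1 member was called for the dish in GM cells with LPS (Lcn2) and 1 for LPS by dish in GM (Slc40a1), and 5 other iron genes in place of 3 for the dish in GM cells with LPS. The cause was not tested.

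Same-numbered libraries did not deviate together (correlations across genes of -0.064 to 0.036), which does not show whether they share a mouse or a batch, and the number was not taken as a pairing. With a replicate block 1 call was lost, Slc40a1 in dish by growth factor with vehicle (-0.37, adjusted p = 0.054), and that count was 2 in place of 3; no other count moved. The same call was lost after subtraction of 0.675% (GM) and 0.600% (M) of the other libraries. Depth limits Steap4 and Lcn2 in vehicle libraries, and 2 libraries a group limit every test.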
